A study of Mus musculus with 6 samples.

Results

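Genes typical of macrophages, monocytes, dendritic cells and neutrophils were followed by RNA sequencing in B cells that had been sorted from mouse colon. The set was a named list of 36 symbols whose rule uses no measured value, and 35 of them were found among the 20591 gene rows of the expression table. Camp was not analysed here. The mice had received either lenvatinib, an inhibitor of receptor tyrosine kinases that include the VEGF and FGF receptors, or DMSO, the solvent control. Each group held 3 libraries. The labels gave the cell type and the treatment. No genotype, strain, age, dose, treatment time or sorting gate was given in the sources used here. The labels count the libraries as biological replicates and do not say that each came from a separate animal, so a p-value here reflects only how far these libraries differ from one another, which may be technical.

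Macrophages, dendritic cells and neutrophils are phagocytes of the innate immune system. In the colon, resident macrophages are renewed from blood monocytes that enter through the receptor Ccr2, and they clear dying cells and microbes. Dendritic cells carry antigen to lymphocytes, and neutrophils arrive in inflammation with granules full of proteases and antimicrobial proteins. Several of the listed genes are not limited to these cells. B cells themselves transcribe Cybb, the catalytic subunit of the phagocyte NADPH oxidase, and Ly6c2 and Itgam are found on some lymphocytes. A level measured in a sorted B cell library can therefore belong to the B cells or to other cells that came with them.

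The library totals behind the FPKM values lay between 26635279 and 31655500 reads. Values are scaled FPKM, fragments per gene divided by gene length and by library total, adjusted between libraries by factors between 0.992 and 1.01. Changes are given as lenvatinib minus DMSO on the scale of log2(scaled FPKM + 1), a scale that compresses changes at low FPKM. A gene was called when its limma adjusted p, taken over all 19715 genes with any value, was below 0.05. Values after ± are SDs over n = 3 libraries. B cell markers were abundant in every library, and their sum lay between 2577 and 2627 in the DMSO libraries and between 2165 and 2214 in the lenvatinib libraries. Of those 10 markers, 7 were called lower. Markers of other cells moved with the treatment. The summed T cell markers lay between 21 and 22.7 in DMSO and between 93.9 and 96.5 in lenvatinib, with 4 of 8 called higher. Those of natural killer and innate lymphoid cells lay between 23.6 and 25.4 and between 104 and 111, with 7 of 10 called higher. Those of colon epithelium lay between 14 and 14.5 and between 58.8 and 62.3, with 8 of 10 called higher. None of the defining markers of these 3 lists was at 0 in either group. Of 11 interferon response genes 10 were called lower, and the groups did not overlap for any of the 11. Their sum lay between 228 and 234 in DMSO and between 118 and 120 in lenvatinib. Erythroid markers had 2 of 5 called higher, endothelial markers 1 of 6 higher and 1 lower, mast cell markers 1 of 4 lower, and fibroblast and smooth muscle markers 0 of 7 called by limma (3 at an unadjusted p under 0.05, and 2 called higher in limma-voom). What part these shifts have in any difference described here was not tested.

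Most of the 35 genes were present at low levels and few differed by treatment. In the limma fit 2 genes were called higher with lenvatinib, Cd14 and Apoe, and 1 was called lower, Ly6c2. That is 5.71% and 2.86% of the 35, where 3.65% of all genes were called higher and 2.76% lower, so the shares called were near those of the whole table. Most of the changes were above 0 without passing the test. The median log2 change over the 35 genes was 0.20, with 28 above 0 and 7 below, against a median of 0.0071 over all 19715 genes. In limma-voom on whole reads recovered from the FPKM values, 8 of 33 genes were called higher (24.2%, where 9.53% of all genes were) and 2 lower (6.06%, where 6.43% were). The 8 were Apoe, Cd14, Itgam, Lyz2, Mrc1, Retnlg, S100a9 and Siglech, and the 2 were Cybb and Ly6c2. The groups did not overlap for 8 genes with higher lenvatinib values (22.9%, where 13.5% of all genes did not) and for 2 with lower values (5.71%, where 10.9% did not). The number called depended on the fit in both directions. With a filter of 1 in 3 libraries, 6 of the 22 genes that passed it were called higher (27.3%, where 10.4% of all filtered genes were) and 1 lower (4.55%, where 8.21% were), a description only, since the filter chose among the genes. Without a filter, 1 was called higher with quantile normalization. Limma called 0 higher with FPKM scaled to its sum (8 at an unadjusted p under 0.05) and 0 with neither trend nor robust moderation (10 at an unadjusted p under 0.05).

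**Figure D1:**
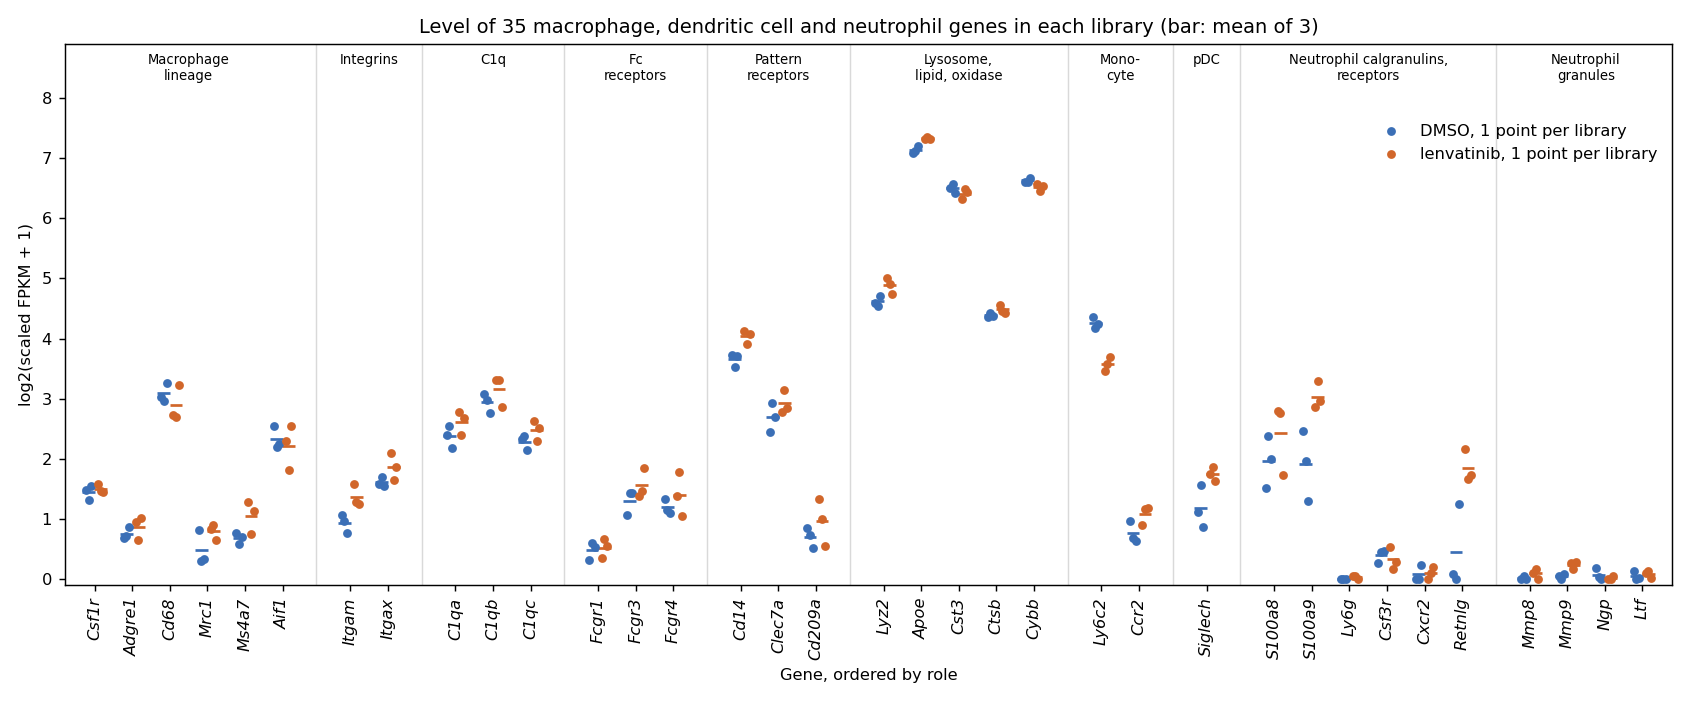
Scaled FPKM of each of the 35 genes in each of the 6 libraries, on a scale of log2(scaled FPKM + 1), with DMSO and lenvatinib replicates 1, 2 and 3 shown as points. Apoe, Cybb and Cst3 lie far above the other genes, at 78.6 to 162 scaled FPKM in every library, and the neutrophil granule genes lie at or near 0.

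The levels spanned several orders of magnitude. Apoe, Cybb and Cst3 were the highest, with DMSO means of 140, 98.1 and 89.5 scaled FPKM. Lyz2, Ctsb, Ly6c2 and Cd14 followed, at 23.6, 19.9, 18.2 and 11.6, and these 7 genes were the only ones with a mean of at least 10 in either group. Cybb and Cst3 are neighbours in this order, and in the lenvatinib libraries, at 90.7 ± 3.39 and 84.2 ± 5.07, the values of the pair overlapped. In all, 24 genes had a mean of at least 1 in at least 1 group, and 11 stayed below 1 in both. With a filter of 1 in at least 3 libraries 22 genes would pass, and 0 of them had every DMSO library below 1. Some reached the filter only with the help of their lenvatinib libraries. Retnlg and Itgam, for example, were each at or above 1 in only 1 DMSO library. The macrophage, monocyte and dendritic cell genes summed to between 440 and 450 scaled FPKM in DMSO and between 461 and 466 in lenvatinib. Without Apoe, Cybb and Cst3 the sums lay between 116 and 119 and between 125 and 134, and no test was made of these sums. Across the 6 libraries, lenvatinib replicate 1 was the highest for 13 genes, replicate 2 for 11 and replicate 3 for 5, while the DMSO replicates were highest for 2, 1 and 3.

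Ly6c2 encodes a surface protein that marks inflammatory monocytes and some lymphocytes, and it had the smallest p of the list. Its scaled FPKM was 19.4, 17.1 and 18.0 in the DMSO libraries and 9.94, 10.9 and 12.0 in the lenvatinib libraries. The highest lenvatinib value lay well below the lowest DMSO value. The mean fell from 18.2 ± 1.15 to 10.9 ± 1.01, a ratio of 0.601. On the log2 scale it fell by 0.69 with an SE of 0.0793 (limma adjusted p = 0.00413). The call held in all 16 alternatives run, with log2 changes between −0.75 and −0.63. The values rested on 474, 492 and 499 reads in DMSO and 293, 293 and 306 in lenvatinib. Ly6c2 shares much of its sequence with its neighbour Ly6c1, so reads may be split between the pair and its level is uncertain. Ly6c1, looked at after its values were seen, was below 1 scaled FPKM in every library and its log2 change was −0.088 (limma adjusted p = 0.729). A further pair of the same family, also chosen after their values were seen, was called lower in lenvatinib. Ly6a went from 203, 183 and 190 to 119, 120 and 117, a log2 change of −0.69 (limma adjusted p = 0.000394). Ly6e went from 316, 299 and 311 to 247, 255 and 261, a log2 change of −0.28 (limma adjusted p = 0.00402). Both calls held in all 16 alternatives. The interferon response genes given above fell in the same libraries, and their part in the fall of Ly6c2 was not tested. Fewer cells that carry Ly6c2 and less Ly6c2 RNA per cell cannot be told apart in these bulk libraries.

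The promoter of Ly6c2 is printed here because this gene was called in every fit, beside those of S100a8 and S100a9, a pair of neutrophil genes on another chromosome. Sequences come from RefSeq with the GRCm38.p6 build and cover the 250 bases before the start of each gene on the gene's own strand. Matches to symbols were made by name, since the expression files use another build. Ly6c2 is on the minus strand at chr15:75111972-75112221, S100a8 on the plus strand at chr3:90668821-90669070, and S100a9 on the minus strand at chr3:90695722-90695971. Capitals mark matches to the core of PU.1, a transcription factor of myeloid and B cells, spelled GAGGAA or TTCCTC on the other strand, and to a loose pattern of the C/EBP factors, spelled TTNNGNAA or TTNCNNAA on the other strand.
Ly6c2: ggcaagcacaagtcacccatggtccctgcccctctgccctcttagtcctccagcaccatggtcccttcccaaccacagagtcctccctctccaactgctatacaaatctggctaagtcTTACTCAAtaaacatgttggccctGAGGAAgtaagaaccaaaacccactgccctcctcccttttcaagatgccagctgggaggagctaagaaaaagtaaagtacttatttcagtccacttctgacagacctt
S100a8: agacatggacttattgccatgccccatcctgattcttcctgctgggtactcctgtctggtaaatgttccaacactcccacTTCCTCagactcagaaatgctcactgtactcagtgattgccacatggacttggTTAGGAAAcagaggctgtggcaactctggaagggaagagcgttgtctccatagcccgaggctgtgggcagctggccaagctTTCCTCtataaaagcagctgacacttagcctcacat
S100a9: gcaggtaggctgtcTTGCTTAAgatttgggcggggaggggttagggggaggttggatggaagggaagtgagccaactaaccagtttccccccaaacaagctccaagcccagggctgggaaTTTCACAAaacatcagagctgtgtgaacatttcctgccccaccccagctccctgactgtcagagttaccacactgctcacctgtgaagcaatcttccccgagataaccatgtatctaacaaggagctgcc
With −1 for the base before the start, the printed Ly6c2 window held a C/EBP match from −132 and a PU.1 match from −108. The S100a8 window held PU.1 matches from −170 and −36 and a C/EBP match from −117, and the S100a9 window held C/EBP matches from −236 and −130. Start sites of S100a8 and S100a9 lie in a transcript of the GENCODE annotation at hand, and that of Ly6c2 was not found in one.

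A promoter was matched for 29 of the 35 genes. Adgre1, Mmp9, Csf1r, C1qa, Ctsb and Cd14 were not matched. For 24 of the 29, the first 30 transcribed bases lay in a GENCODE transcript of that gene, and the start sites of the rest are less certain. In windows of 300 bases, 250 before and 50 after the start and read on both strands, the PU.1 core was found in 22 of 29 (75.9%), where 28.3% of the 27025 genes with a promoter held it. The C/EBP pattern was found in 20 of 29 (69.0%), where 40.7% of all held it. Both patterns may overlap each other. A pattern of the interferon-stimulated response element, GAAA, any 2 bases and GAAA again, was found in Fcgr4, Aif1 and Cybb, which is 3 of 29 (10.3%), where 3.49% of all held it. A match is a run of letters and not a site in use. Of the genes with a PU.1 core, Apoe was called higher and Ly6c2 lower.

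Of 6 receptors and surface proteins that define the macrophage lineage, limma called 0 (1 at an unadjusted p under 0.05), and limma-voom called Mrc1 higher (log2 change 1.11, adjusted p = 0.0337). Csf1r, the receptor for the growth factor that macrophages depend on, was at 1.73 ± 0.231 in DMSO and 1.83 ± 0.126 in lenvatinib, with a 95% interval of the log2 difference from −0.19 to 0.29. Adgre1, which encodes F4/80, was at 0.690 ± 0.110 and 0.838 ± 0.240. Cd68, a lysosomal membrane protein of macrophages, was at 7.53 ± 0.975 and 6.51 ± 1.64. Aif1, an actin-binding protein of macrophages, was at 4.06 ± 0.669 and 3.75 ± 1.18. Mrc1, the mannose receptor, was at 0.414 ± 0.295 and 0.740 ± 0.159, with DMSO replicate 1 at 0.755 and the other DMSO replicates at 0.230 and 0.257. Ms4a7, a tetraspan membrane protein of macrophages, was at 0.605 ± 0.110 and 1.10 ± 0.380. None of the 6 had groups that did not overlap.

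The complement C1q chains and the Fc receptors, which tag and bind immune complexes, had log2 changes above 0 that did not pass the test. C1qa, C1qb and C1qc, which together form the C1q protein made by macrophages, had DMSO means of 4.20 ± 0.656, 6.70 ± 0.825 and 3.87 ± 0.405. In lenvatinib their means were 5.16 ± 0.821, 8 ± 1.51 and 4.62 ± 0.648. The log2 changes of the 3 chains were 0.24, 0.21 and 0.20, with limma adjusted p of 0.395, 0.501 and 0.398. Their summed level lay between 12.7 and 15.9 in DMSO and between 16.4 and 19.9 in lenvatinib, ranges that do not overlap, and no test was made of the sum. Fcgr1, Fcgr3 and Fcgr4, receptors for antibody on phagocytes, had log2 changes of 0.042, 0.26 and 0.21, and limma called 0 of the C1q and Fc receptor genes, with 0 at an unadjusted p under 0.05 and 0 called in limma-voom. The Fc receptor genes are alike in sequence, so reads may be split among them and with Fcgr2b.

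Pattern recognition receptors bind microbial sugars and lipids. Cd14, the coreceptor for bacterial lipopolysaccharide, was called higher. It was at 12.3, 10.5 and 12.1 scaled FPKM in DMSO and 16.5, 14 and 15.9 in lenvatinib, so every lenvatinib library lay above every DMSO library. Its mean went from 11.6 ± 1.00 to 15.5 ± 1.29, and the log2 difference was 0.39 with a 95% interval from 0.18 to 0.59 (limma adjusted p = 0.0479). The call was close to the threshold and was lost, with adjusted p between 0.0838 and 0.131, without DMSO replicate 1, 2 or 3 or lenvatinib replicate 1 or 3. It was also lost with FPKM scaled to its sum (limma adjusted p = 0.0637), with quantile normalization (0.0605) and with neither trend nor robust moderation (0.0638). The other receptors did not pass. Clec7a, the receptor for fungal beta-glucan, was at 5.52 ± 1.09 and 6.62 ± 1.10, and the dendritic cell lectin Cd209a at 0.623 ± 0.184 and 0.986 ± 0.519.

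Genes of the lysosome, lipid transport and the oxidative burst were the most abundant of the list. Apoe, the apolipoprotein that macrophages secrete, was at 135, 138 and 147 in DMSO and 159, 162 and 158 in lenvatinib, and the groups did not overlap. Its mean went from 140 ± 6.13 to 160 ± 2.44, and the log2 difference was 0.19 with an SE of 0.0362 (limma adjusted p = 0.0282). The call was lost without DMSO replicate 1 or 2 or any lenvatinib replicate, with adjusted p between 0.0697 and 0.096, and also with FPKM scaled to its sum (0.0871) and with neither trend nor robust moderation (0.0572). Lyz2, the macrophage lysozyme, was at 23.2, 22.4 and 25.1 in DMSO and 31.3, 28.9 and 25.8 in lenvatinib, a log2 change of 0.27 (limma adjusted p = 0.109). Its groups did not overlap, and lenvatinib replicate 3 was close to DMSO replicate 3. Lyz2 passed in limma with a filter of 1 in 3 libraries (adjusted p = 0.0342) or on a mean of 1 (0.0343), and in limma-voom (adjusted p = 0.0443). Cybb was at 96.7, 96.3 and 101 in DMSO and 93.6, 87.0 and 91.5 in lenvatinib, a log2 change of −0.11 (limma adjusted p = 0.162). Its groups did not overlap either, and limma-voom called it lower (adjusted p = 0.019). Cst3, which encodes the protease inhibitor cystatin C, was at 89.4, 94.5 and 84.5 in DMSO and 78.6, 88.5 and 85.6 in lenvatinib, and Ctsb, the lysosomal protease cathepsin B, at 19.5, 20.5 and 19.8 and 22.6, 21.1 and 20.5. Both had groups that overlapped.

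The chemokine receptor Ccr2 and the integrins of myeloid cells were low. Ccr2 was at 0.704 ± 0.226 in DMSO and 1.12 ± 0.225 in lenvatinib, with a log2 change of 0.32 (limma adjusted p = 0.268). Itgam, the alpha chain of the integrin Mac-1 on monocytes, neutrophils and some natural killer cells, was at 1.08, 0.949 and 0.705 in DMSO and 1.98, 1.44 and 1.37 in lenvatinib, with groups that did not overlap and a log2 change of 0.44 (limma adjusted p = 0.119). Itgax, the integrin chain CD11c of dendritic cells, was at 2.05 ± 0.161 and 2.67 ± 0.568. Siglech, a lectin of plasmacytoid dendritic cells, was at 1.16, 1.94 and 0.826 and at 2.37, 2.65 and 2.11. The groups did not overlap and the log2 change was 0.58 (limma adjusted p = 0.134). Siglech passed in limma with a filter of 1 in 3 libraries (adjusted p = 0.0472) or on a mean of 1 (0.0477), calls that are a description only. It also passed in limma-voom and without DMSO replicate 2. Itgam passed in limma-voom (log2 change 0.85, adjusted p = 0.0114). Natural killer cells can also carry Itgam and Itgax. Their markers were higher in the lenvatinib libraries, and their part in these values was not tested.

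**Figure D2:**
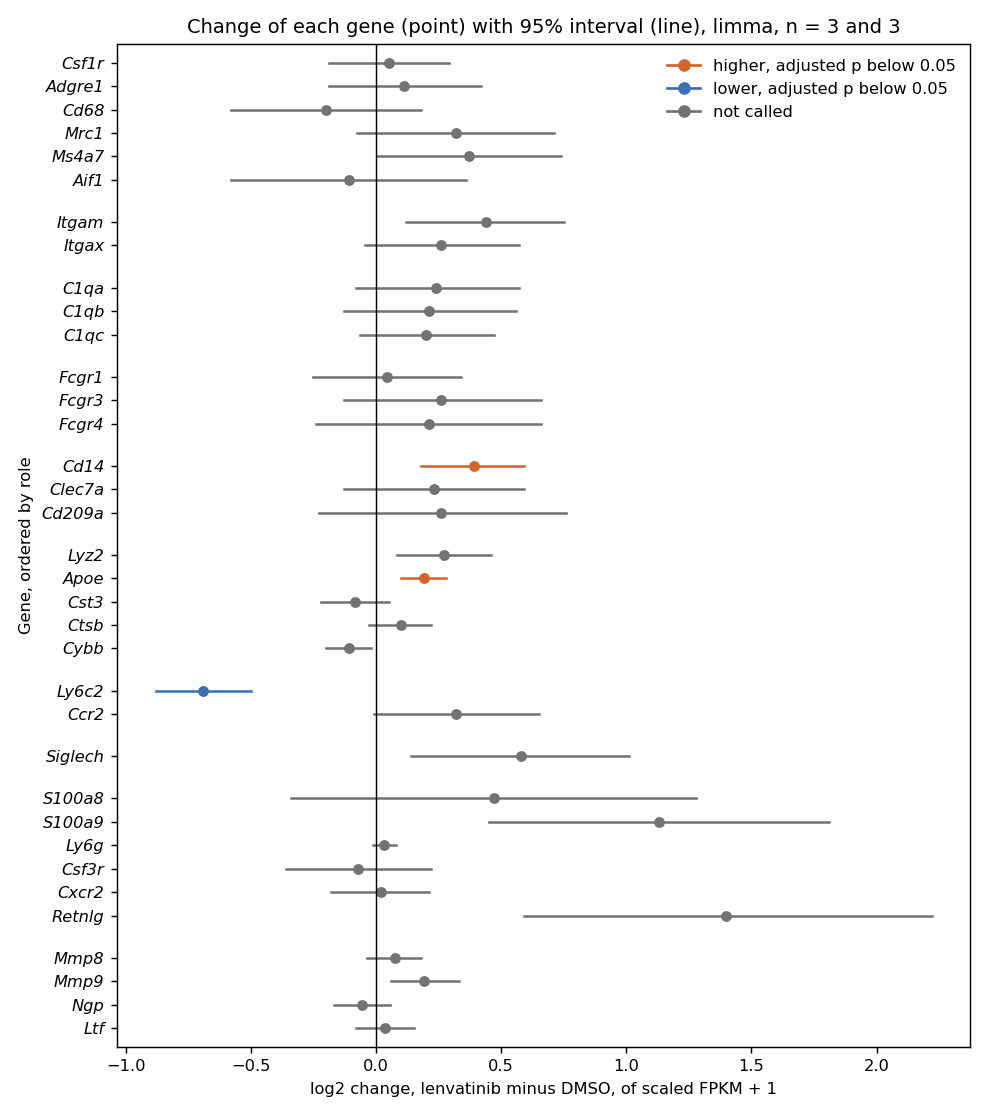
Change of each of the 35 genes in log2(scaled FPKM + 1), lenvatinib minus DMSO, with the 95% interval of the limma fit. Ly6c2 at −0.69 is the only gene called lower, Cd14 at 0.39 and Apoe at 0.19 are called higher, and the widest intervals belong to Retnlg and S100a8.

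Neutrophil genes were low, varied between libraries, and limma without a filter called 0 of the 10 analysed, with 3 at an unadjusted p under 0.05. In limma-voom S100a9 and Retnlg were called higher. The summed scaled FPKM of the neutrophil genes lay between 6.44 and 7.51 in DMSO and between 12.0 and 17.3 in lenvatinib, and no test was made of the sum. S100a8, S100a9 and Retnlg made up most of each sum, and the other 7 genes had means below 1 in both groups. The median log2 change of the 10 genes was 0.054. S100a9, a calcium-binding protein that makes up the calprotectin of neutrophils with S100a8, was at 4.48, 2.89 and 1.46 in DMSO and at 6.23, 8.79 and 6.76 in lenvatinib. Its groups did not overlap and its log2 change was 1.13 with an SE of 0.284 (limma adjusted p = 0.0712), and it did not pass. It passed in limma with a filter of 1 in 3 libraries (adjusted p = 0.0134) or on a mean of 1 (0.0136), in limma-voom (adjusted p = 0.00857) and without DMSO replicate 1 (limma adjusted p = 0.0366). It rested on 62, 47 and 23 reads in DMSO and 104, 134 and 98 in lenvatinib. S100a8 was at 1.84, 4.19 and 2.98 and at 5.92, 5.79 and 2.30, so lenvatinib replicate 3 fell among the DMSO values. Its log2 change was 0.47 (limma adjusted p = 0.542). S100a9 separated the groups and S100a8 did not.

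Retnlg, a resistin-like protein of neutrophils, was close to absent in DMSO replicates 1 and 2. It had 1, 0 and 25 reads in DMSO and 67, 38 and 39 in lenvatinib, or 0.0623, 0 and 1.37 and then 3.46, 2.15 and 2.32 scaled FPKM. The log2 change was 1.4 with an SE of 0.342 (limma adjusted p = 0.0654). It passed in limma with either filter (adjusted p = 0.0126 and 0.0128), in limma-voom (log2 change 4.15, adjusted p = 0.00264) and without DMSO replicate 3, where the limma adjusted p was 0.0076. Retnlg had a DMSO mean of 0.478 and reached either filter only through its lenvatinib values, so the filtered calls are a description only. DMSO replicate 3 was the only DMSO library with more than 1 read of Retnlg.

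The other neutrophil genes were carried by few reads. Ly6g, the neutrophil surface marker, had 0 reads in all 3 DMSO libraries and 1, 1 and 0 in lenvatinib. A count of 0 over the DMSO group allows up to 0.0364 FPKM, the level of 3 reads over the group, a limit that covers counting error only. Csf3r, the receptor for the growth factor of neutrophils, was at 0.320 ± 0.101 and 0.259 ± 0.165. Cxcr2, their main chemokine receptor, had 0, 0 and 17 reads in DMSO and 0, 6 and 13 in lenvatinib. The granule proteins were as low. Mmp9 had 2, 0 and 3 reads and then 12, 7 and 11, Mmp8 had 0, 3 and 0 and then 6, 9 and 0, Ltf had 7, 0 and 1 and then 6, 8 and 1, and Ngp had 4, 1 and 0 and then 0, 0 and 1. Mmp9 was the only one of the 4 whose groups did not overlap.

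**Figure D3:**
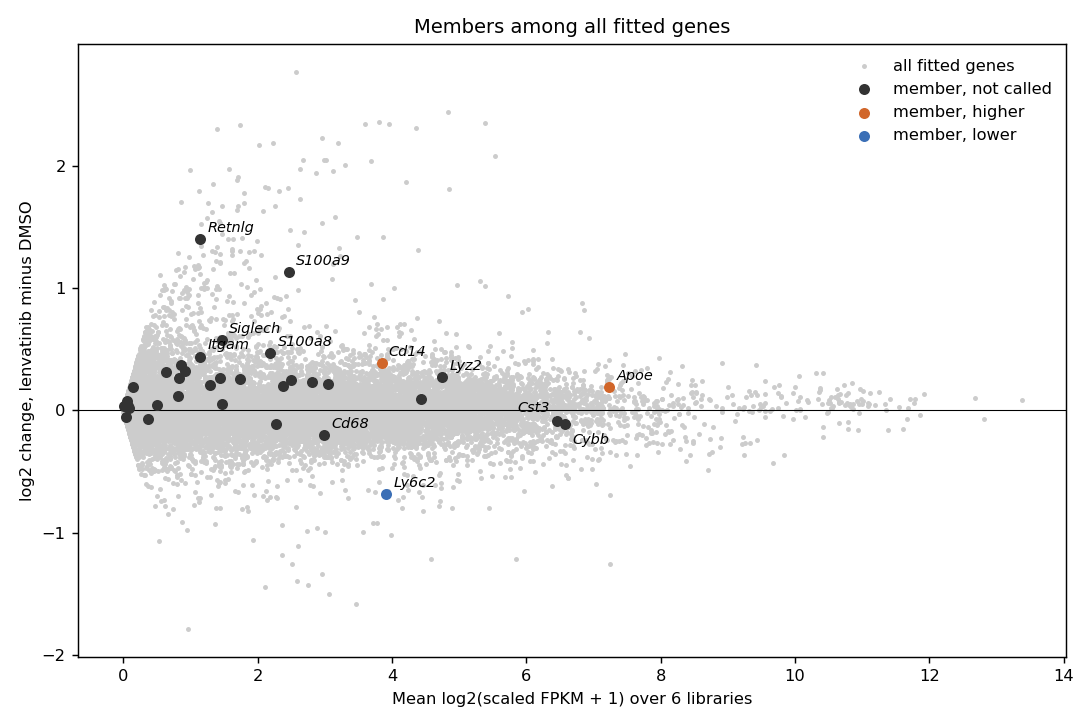
Log2 change against mean log2(scaled FPKM + 1) over the 6 libraries, with every fitted gene in grey and the 35 genes as larger points. The 2 genes called higher and the 1 called lower lie at different mean levels, and most of the others sit within the band of all genes near 0.

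Genes outside the list that belong to the same cells and pathways were called in both directions. Of 122 found, 16 were called higher (13.1%, where 3.65% of all genes were) and 10 lower (8.20%, where 2.76% were), with a median log2 change of 0.11. All 10 called lower were abundant, with DMSO means between 46.6 for Fcgr2b and 654 for Ccr7. Most B cell markers were lower in the same libraries, and the part of the B cells in these calls was not tested. Among 24 other macrophage genes, 4 were called higher, Ctsd, Lyve1, Arg1 and Chil3, and 0 lower. Folr2 had 0 reads in every library and was not fitted. Lyve1 and Arg1 were carried by few reads, 31 and 5 over the DMSO libraries and 146 and 75 over the lenvatinib libraries. Ctsd, a lysosomal protease, went from 33.4 ± 2.25 to 40.6 ± 1.4, and Chil3, a chitinase-like protein of alternatively activated macrophages, from 0.438 ± 0.236 to 1.8 ± 0.724. Among 22 other neutrophil genes 3 were called higher and 0 lower, Il1r2, Acod1 and Cxcl3. Of these 22, 12 had a mean below 1 scaled FPKM in both groups. Among 18 other conventional dendritic cell genes 3 were called higher, Ccl17, Ccl22 and Itgae, and 2 lower, Wdfy4 and Ccr7. Ccl17 had 0 reads in all DMSO libraries and 12, 11 and 21 in lenvatinib. Itgae, an integrin chain that intraepithelial T cells also carry, went from 1.30 ± 0.230 to 7.13 ± 0.443. Ccr7, the receptor that leads lymphocytes and dendritic cells to lymph nodes, was at 654 ± 3.49 and 540 ± 3.34, and was called lower. Of 8 eosinophil genes limma called 0, with 1 at an unadjusted p under 0.05 and 0 called in limma-voom.

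Signalling partners of the listed receptors moved both ways. Fcer1g and Tyrobp, adaptor chains of Fc receptors and of natural killer receptors, were called higher. Fcer1g went from 12.3 ± 1.36 to 32.0 ± 3.40 (log2 change 1.31, limma adjusted p = 0.000881) and Tyrobp from 35.5 ± 2.63 to 50.2 ± 3.70. Syk, Fcgr2b and Lyn, which also act in B cells, were called lower, by 0.16 to 0.21 on the log2 scale. Of 6 genes that act with Cybb in the oxidative burst, the oxidase subunit Cyba and the proton channel Hvcn1 were called lower and 0 higher. Limma-voom called 1 of the 6 higher and 2 lower. Ncf1 went from 126 ± 2.71 to 137 ± 2.63, with groups that did not overlap (limma adjusted p = 0.0634). Of 8 listed chemokines for Ccr2 and Cxcr2, 2 were called higher, Ccl12 and Cxcl2, and Cxcl2 went from 19.4 ± 2.84 to 32.6 ± 2.64. Cxcl3, another chemokine for Cxcr2, was counted above with the neutrophil genes. Csf2, the growth factor for granulocytes and macrophages, was the only 1 of 9 growth factor and receptor genes called, from 0.273 ± 0.126 to 1.8 ± 0.514. Of the 9 transcription factors, Id2 was called higher, from 44.4 ± 0.869 to 66.0 ± 2.32, and Irf8 lower, from 152 ± 2.24 to 123 ± 1.77. Among 8 other plasmacytoid dendritic cell genes, Bst2 and Ly6d were called lower and 0 higher. Bst2 is induced by interferon, and the interferon response genes fell in the same libraries. Their part in the fall of Bst2 was not tested. The calls of Fcer1g, Tyrobp, Itgae, Ccr7, Bst2, Csf2, Hvcn1, Id2 and Irf8 held in all 16 alternatives, and that of Cxcl2 in 15 of 16. Each of the other called genes of these lists lost its call when at least 1 library was left out.

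**Figure D4:**
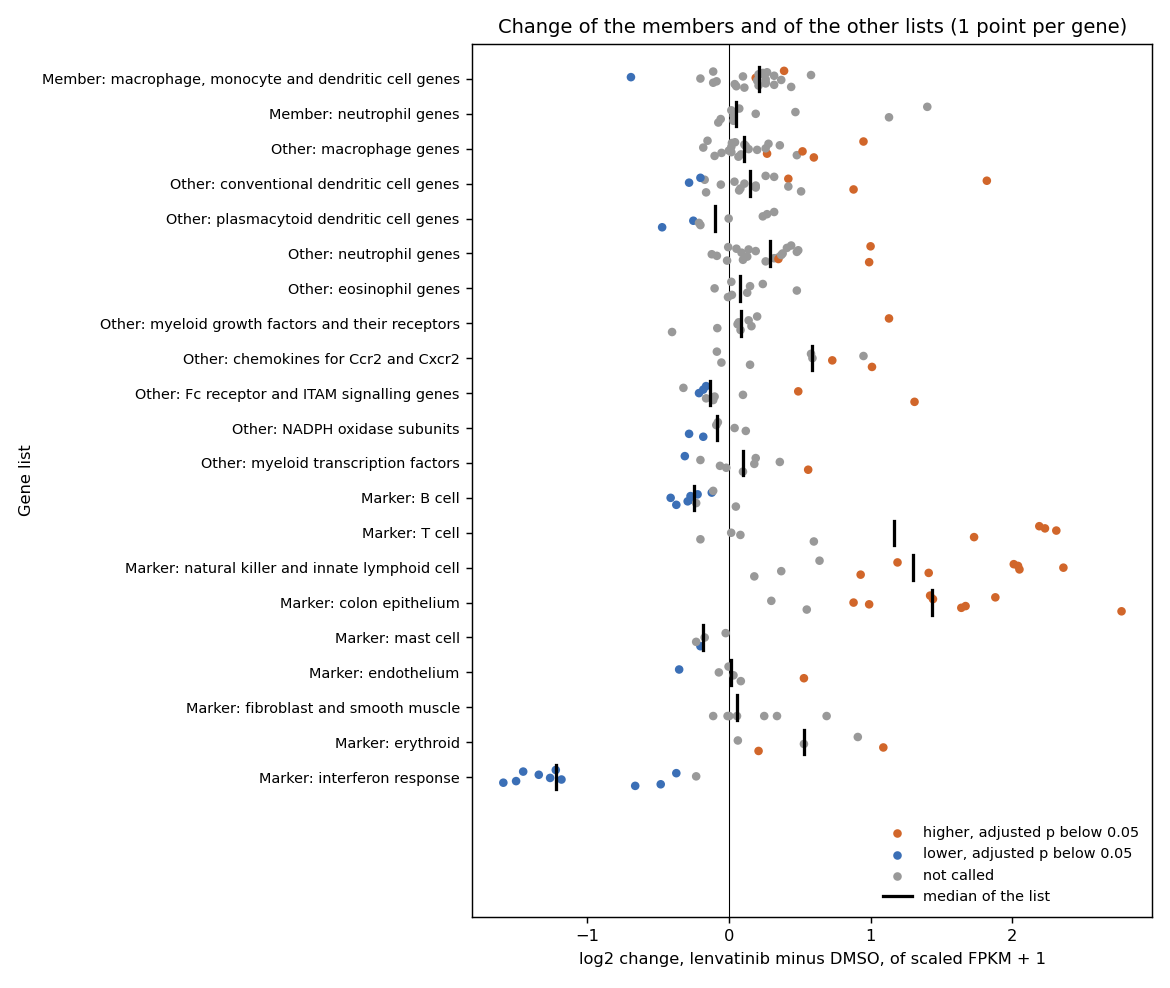
Log2 change of each gene, lenvatinib minus DMSO, for the 35 genes by cell type, for the other lists of the same cells and pathways, and for markers of other cells, with the median of each list. The medians of the T cell, natural killer and colon epithelium markers lie at 1.16, 1.30 and 1.43, above those of the macrophage and neutrophil genes at 0.21 and 0.054, and the interferon response lies at −1.22. Of the 10 neutrophil genes, 7 had a mean below 1 scaled FPKM in both groups, where this scale compresses changes.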

How the data were processed

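RNA sequencing had been done on 6 libraries of sorted colon B cells, 3 per treatment. Per the labels' protocols, RNA was extracted with TRIzol and libraries were made with a VAHTS Universal kit. Per the submitters' processing notes, HTSeq was used with build GRCm39; the aligner, annotation, tool versions and strand setting are not given in the sources used here, so reads of overlapping or antisense genes cannot be told apart. The authors deposited FPKM per gene in 1 table, and each of its 6 columns was matched to a sample by the name in that sample's description.

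FPKM was scaled by median-of-ratios factors from genes at or above 1 in every library. The values log2(scaled FPKM + 1) of all 19715 rows above 0 in any library were fitted in limma 3.58.1 under R 4.3.3, with trend and robust moderation, no filter and no replicate block. Tests were two-sided, with Benjamini-Hochberg adjustment over all rows and a threshold of 0.05. Whole reads were recovered from FPKM steps in 100% of these rows (tolerance 1e-05), with library totals of 26635279 to 31655500 reads, of which the recovered rows held 26559242 to 31563675, and served limma-voom (rows with at least 10 reads). Replicates differed beyond counting noise, with chi-square per degree of freedom of 6.7 to 9.65. The procedures were run on simulated data. Only genes above a minimum level were given a change there, so calls of genes with few reads were not covered.

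The members, lists and promoter motifs were chosen with earlier results of these data known. All members are accounted for. Called members and those with a mean of at least 10 are given by library, and called genes of the other lists are named. Alternatives changed the pseudocount, filter, scaling, moderation, block, test and libraries.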

Additional observations from a re-analysis of the deposited data

How the results depend on the processing

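Across 16 alternatives and 64 named genes, 988 comparisons with the reported value were made: 847 kept direction and side of the threshold, 112 kept direction and lost the call, 18 gained one and 11 reversed. Ly6c2 kept its call in all 16. The number of listed genes called higher, 2 in the report, was 6 with a filter of 1 in 3 libraries, 6 with a filter on a mean of 1, 1 with quantile normalization and 8 in limma-voom. It was 0 when scaled to the sum of FPKM (8 at an unadjusted p under 0.05) and 0 with neither trend nor robust moderation (10 at an unadjusted p under 0.05). With a replicate left out it ranged from 0 to 2, and the 0 arose without lenvatinib replicate 1 (9 at an unadjusted p under 0.05) or 3 (13). The number called lower, 1, was 2 in limma-voom. Over all genes, limma-voom called 1572 higher and 1061 lower, and leaving out a replicate called 420 to 487 higher and 304 to 333 lower. Cd14 lost its call when scaled to the sum of FPKM (adjusted p = 0.0637), with quantile normalization (0.0605) and with neither trend nor robust moderation (0.0638), with adjusted p over all alternatives from 0.00468 in limma-voom to 0.131 without lenvatinib replicate 1. Apoe lost its call when scaled to the sum of FPKM (limma adjusted p = 0.0871) and with neither trend nor robust moderation (0.0572). Quantile normalization turned Csf1r to −0.00039, Fcgr1 to −0.012 and Cxcr2 to −0.0004. Leaving out a replicate gave log2 changes of −0.017 to 0.10 for Csf1r, −0.038 to 0.13 for Fcgr1, −0.034 to 0.10 for Cxcr2, −0.28 to 0.093 for Aif1 and −0.17 to 0.0075 for Csf3r. The cause of these changes was not tested. The median over the listed genes was above 0 in all 16 alternatives, from 0.14 to 0.36.

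Replicate numbers are shared between groups in the labels, which do not say that the numbers pair libraries, so they were not taken as pairs. The deviations of same-numbered libraries from their group means correlated at 0.0181, 0.00994 and 0.0144. Each of the 6 libraries correlated best with the same number in the other group. These matches depend on one another and the correlations are small, so they cannot decide whether the numbers pair the libraries. With the replicate block, 337 genes were called higher and 255 lower, and 1 listed gene higher, since Apoe lost its call (limma adjusted p = 0.0974). Of the genes outside the list, Cxcl2 lost its call in this setting alone (limma adjusted p = 0.0568). Depth limits the genes with few reads: 7 listed genes had 0 reads in some library and 4 stayed under 10 reads in every library.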
